A study of Homo sapiens with 2 samples.

Results

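The SLC25 genes encode the mitochondrial carriers, a family of membrane proteins of which most sit in the inner mitochondrial membrane. The members described here are all genes of the array table whose symbol begins with SLC25A followed by a number. This rule gave 42 of the 14526 named genes, each read by 1 transcript cluster, meaning a set of probes for that gene. The rule used no measured value. The cells were NUGC4, an established line of human gastric cancer, and 2 RNA samples were each read on an array. The control sample came from cells transfected with a negative control siRNA. The other sample came from cells transfected with an siRNA to lower ANO5, the gene of the membrane protein anoctamin 5. Both siRNAs were given at 20 nmol/l and 24 h after seeding, with the same transfection reagent. The study's question is how ANO5 bears on the cell cycle of such cells. Each group holds 1 array, so that no difference below has a replicate check, an error or a p-value, and precision is limited by this number of arrays. A single ANO5 siRNA was used, so effects of lower ANO5 and effects of that siRNA on other RNAs cannot be told apart.

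Carriers of this family share a fold of repeated membrane helices and usually exchange one solute for another across the inner membrane, which is otherwise closed to charged metabolites. Through them ADP enters and ATP leaves the matrix, and amino acids, carboxylates, nucleotides, cofactors and iron reach the enzymes that use them. The proteins are made in the cytosol and inserted into the inner membrane by the TIM22 machinery. Several members come as pairs of close relatives with the same substrate and different tissue distribution.

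On the deposited log2 scale, the targeted gene ANO5 had a signal of 6.83 in the control and 3.67 with its siRNA, a difference of -3.16. Its mean of 5.25 lay below 6.05, the 33rd percentile of all named genes, where background may set a limit to a fold. All 12 listed epithelial markers were in the table, and EPCAM, an epithelial adhesion protein, had 16.63 in the control and 17.04 with ANO5 siRNA. These markers were not all steady. By 1.5-fold or more 6 of the 12 were higher and 1 was lower, beside 18.6% and 16.6% of all named genes. The extremes were KRT7 (11.64 and 13.76) and CLDN3 (9.14 and 7.79). The table held 3 of 8 listed fibroblast markers, 7 of 8 of blood, and 5 of 8 that stand for vessels, muscle or nerve. In the control the fibroblast markers ran from 4.58 (COL1A1) to 8.03 (COL1A2), the blood markers from 3.68 (PTPRC) to 10.88 (LYZ, a lysozyme that gastric epithelium also makes) and the third list from 4.85 (DES) to 7.89 (ACTN2). With ANO5 siRNA these lists ran from 4.19 to 7.92, from 3.49 to 9.80 and from 4.87 to 7.75. Of these markers, in the same order, 1 of 3, 3 of 7 and 3 of 5 had a mean at or above 6.05, the 33rd percentile of all named genes, among them COL1A2, CD68 (7.66 and 7.34) and VWF (7.14 and 7.66). The proliferation marker MKI67 had 12.66 and 11.08 and the mitotic kinase CDK1 12.50 and 9.87, both chosen after their values were seen. Their part in the differences of the carriers was not tested. In cultures measured in bulk, fewer cells expressing a gene and less RNA of it per cell cannot be told apart.

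The carriers went both ways. A gene is counted here as higher or lower where the ANO5 siRNA array differed from the control array by 1.5-fold or more, which is 0.585 on the log2 scale. By this rule 10 of the 42 carriers were higher, 8 were lower and 24 lay within 1.5-fold. Of all named genes 18.6% were higher and 16.6% lower, together 35.2%, beside 23.8%, 19.0% and together 42.9% of the carriers. The median difference was 0.085 for the carriers and 0.03 for all named genes, and the median size of the difference, regardless of sign, was 0.445 and 0.40. These shares and medians lie near those of all genes, so the counts over the whole family are no result about carriers. At 2-fold 4 carriers were higher and 1 was lower, where 8.33% and 8.35% of all named genes were, together 16.7%. Of the 4 higher ones, SLC25A42 and SLC25A45 had low values. With a pseudocount of 16 added to the signal their differences fell to 0.83 and 0.91, below 2-fold.

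Of the 42 carriers, 33 had a mean over both arrays at or above 6.05, the 33rd percentile of all named genes. The other 9 had low values on both arrays, where background may set a limit to a fold. They include 4 of the 10 higher carriers (SLC25A21, SLC25A29, SLC25A42 and SLC25A45) and 1 of the 8 lower ones (SLC25A27). Among named genes at or above that level 23.2% were higher and 20.1% lower, together 43.3%, beside 6 and 7 of the 33 carriers.

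**Figure D1:**
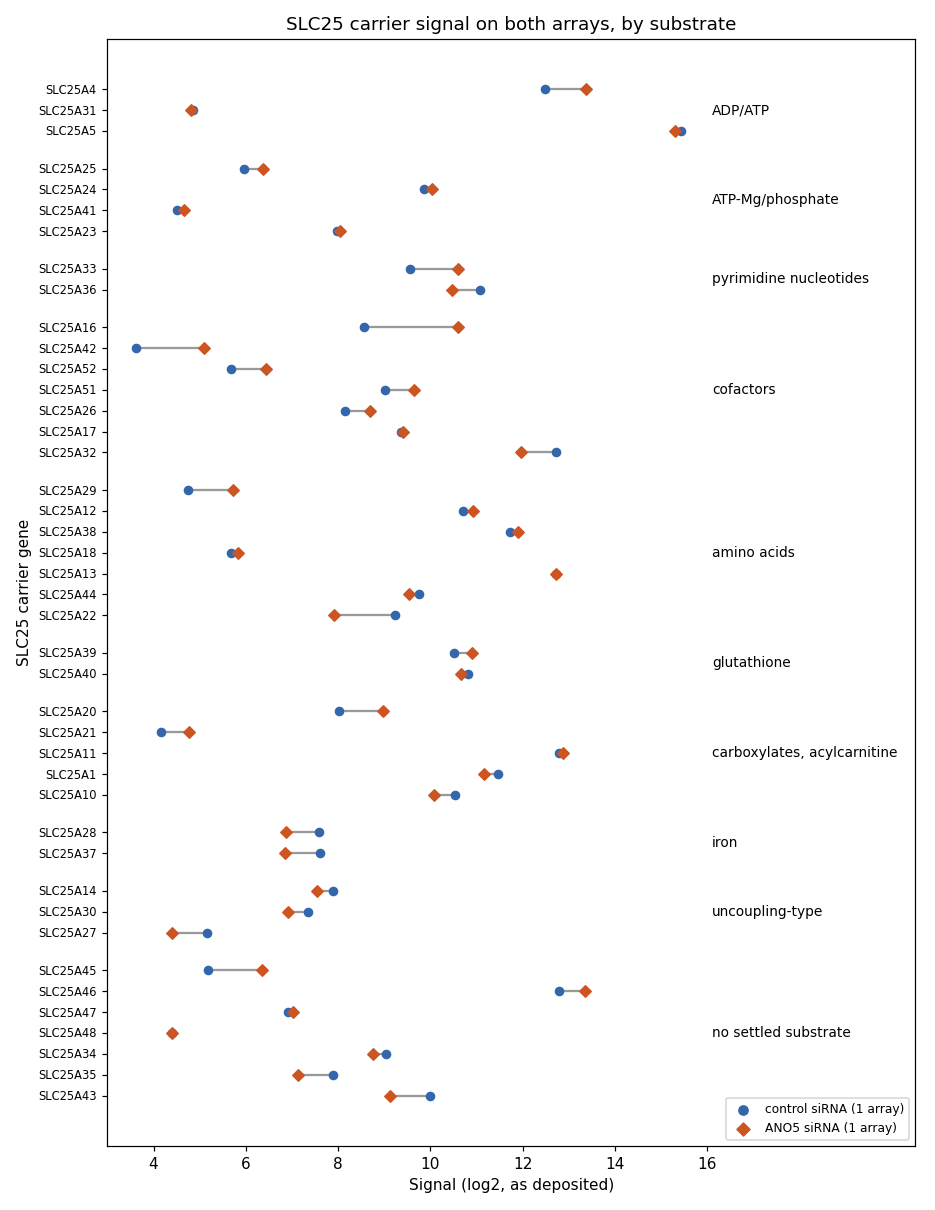
Signal of each of the 42 SLC25 carrier genes on both arrays, on the deposited log2 scale (horizontal axis), with genes grouped by substrate (vertical axis); circles are the control siRNA array and diamonds the ANO5 siRNA array, 1 array each, so there are no error bars. The widest gaps are those of SLC25A16 (8.55 to 10.59) and SLC25A42 (3.61 to 5.10) towards higher signal and of SLC25A22 (9.24 to 7.92) towards lower signal.

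Nucleotides. The ADP/ATP carriers exchange matrix ATP for cytosolic ADP and so join oxidative phosphorylation to the rest of the cell. SLC25A4 (ANT1), the form typical of heart and muscle, had a signal of 12.48 in the control and 13.38 with ANO5 siRNA, which is 1.87-fold higher. SLC25A5 (ANT2), the form typical of dividing cells, had 15.43 and 15.29, a difference of -0.14. The RefSeq gene table (GRCh38.p14) lists 9 pseudogenes under the symbol of SLC25A5, and probes may share signal between such near-identical copies. SLC25A31 (ANT4), a form of the germ line, lay at 4.85 and 4.81. The differences of these 3 genes thus spanned 1.04 on the log2 scale, with SLC25A4 the only one of them past 1.5-fold.

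The ATP-Mg/phosphate carriers set the total pool of adenine nucleotides in the matrix, and most of them are switched on by cytosolic calcium. None of the 4 passed 1.5-fold. SLC25A23 had 7.98 and 8.05, SLC25A24 9.87 and 10.03, SLC25A25 5.95 and 6.38 and SLC25A41, a short form without the calcium-binding part, 4.51 and 4.66. All 4 had differences above 0, from 0.07 to 0.43. Differences above 0 were also seen in 7577 of all 14526 named genes. With 4 members, nothing particular to these carriers can be read from their signs.

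The pyrimidine nucleotide carriers, which bring building blocks for mitochondrial DNA and RNA into the matrix, went apart. SLC25A33 had 9.55 in the control and 10.59 with ANO5 siRNA, a 2.06-fold higher signal. Its relative SLC25A36 had 11.07 and 10.47 and was 1.52-fold lower, just past the size that counts. The difference between the log2 changes of this pair, 1.64, is the widest of the related sets named here.

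For this opposed pair the 250 bases before each start site are shown, 5′ to 3′, from the RefSeq promoter table (GRCh38.p14). Capitals mark the letters of the CCAAT box (CCAAT), the GC box (GGGCGG) and the E-box (CACGTG) on either strand. Only the motifs named here and below were searched for, and the windows also share letters left in lower case, such as gtgacgtcacg. The windows are chr1:9539215-9539464 on the plus strand for SLC25A33 and chr3:140941586-140941835 on the plus strand for SLC25A36.
SLC25A33: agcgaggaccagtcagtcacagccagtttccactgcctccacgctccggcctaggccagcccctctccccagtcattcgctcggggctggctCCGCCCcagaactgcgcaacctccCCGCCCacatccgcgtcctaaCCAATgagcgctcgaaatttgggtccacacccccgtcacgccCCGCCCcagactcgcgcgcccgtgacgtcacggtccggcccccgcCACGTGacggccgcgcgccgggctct
SLC25A36: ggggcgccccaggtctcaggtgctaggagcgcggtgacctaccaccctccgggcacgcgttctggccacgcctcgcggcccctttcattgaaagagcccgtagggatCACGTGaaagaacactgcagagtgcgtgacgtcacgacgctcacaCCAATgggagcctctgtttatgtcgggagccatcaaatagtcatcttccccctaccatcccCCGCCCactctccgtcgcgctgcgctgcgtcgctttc

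Both windows hold the same 3 kinds of letters, with 5 matches in that of SLC25A33 and 3 in that of SLC25A36. A link between these letters and the differences of this pair was not tested. Such a window was used for 36 of the 42 carriers. Promoters on chromosome 8 were left out, for carriers and for all named genes alike, and with them SLC25A32 and SLC25A37. No window was found for SLC25A16, SLC25A30, SLC25A35 and SLC25A41. The E-box letters CACGTG stood in 7 of the 36 windows (19.4%), beside 7.91% of the windows of 11791 named genes. The 7 carriers were SLC25A13, SLC25A31, SLC25A33, SLC25A36, SLC25A38, SLC25A46 and SLC25A51, of which 2 were higher and 1 was lower by 1.5-fold, with a median difference of 0.17 beside 0.10 for the 29 others. CCAAT stood in 41.7% of the carriers' windows and 34.6% of all, GGGCGG in 63.9% and 60.4%, and the motif of NRF1, a regulator of mitochondrial genes, in 8.33% and 8.63%. TTTGGCGC or TTTCCCGC, letters of E2F sites, stood in 2 windows (5.56%, beside 2.74%), and TATAAA in 3 (8.33%, beside 7.80%). These are matches of letters on either strand, not sites, and the motifs may overlap one another. The median GC content of the windows was 65.4% for the carriers and 63.6% for all.

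Cofactors. The carriers of cofactors built on or like nucleotides supply the matrix with coenzyme A, NAD, folate and S-adenosylmethionine. Of 7 such carriers 4 were higher and 1 was lower, with a median difference of 0.64, the highest median of the substrate groups. Of all named genes 18.6% were higher and 16.6% lower. Among the 4, SLC25A51 and SLC25A52 are near-identical and SLC25A42 lay at low values. With 7 members, nothing particular to cofactor carriers can be read from this count. SLC25A16, a carrier linked to the coenzyme A pool of the matrix, had 8.55 in the control and 10.59 with ANO5 siRNA and was 4.11-fold higher. It had the largest difference of the family, and 98.9% of the named genes lay at or below it. SLC25A42, which imports coenzyme A, went the same way, from 3.61 to 5.10 (2.81-fold higher), but its control value was at or above only 3.45% of the named genes on that array.

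SLC25A51, the NAD carrier of human mitochondria, had 9.01 and 9.65 and was 1.56-fold higher. Its close copy SLC25A52 had 5.68 and 6.43 and was 1.68-fold higher. The 2 genes are near-identical, so their clusters may share signal and are not independent measurements. Pseudogenes of SLC25A51, of which the gene table lists 4, may add to both.

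SLC25A26, which brings S-adenosylmethionine into the matrix for methylation of mitochondrial RNA and proteins, had 8.15 and 8.69, a difference of 0.54 that stays short of 1.5-fold. SLC25A17, a carrier of cofactors in the peroxisome rather than the mitochondrion, had 9.37 and 9.41. SLC25A32, the folate carrier, was the exception in this group at 12.73 in the control and 11.96 with ANO5 siRNA, which is 1.71-fold lower. Of the mitochondrial one-carbon enzymes, given further on, 4 were lower and 3 were higher, and a link to SLC25A32 was not tested.

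Amino acids. Of 7 amino acid carriers 1 was higher, 1 was lower and 5 lay within 1.5-fold, with a median of 0.15. Of all named genes 18.6% were higher and 16.6% lower, and with 7 members nothing particular to this group can be read. SLC25A22, which carries glutamate with a proton into the matrix, had 9.24 in the control and 7.92 with ANO5 siRNA. At 2.50-fold lower it had the largest negative difference of the family, and 5.36% of the named genes lay at or below it. The other glutamate carrier, SLC25A18, lay at 5.68 and 5.83, a difference of 0.15 at a low level.

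The aspartate/glutamate carriers of the malate-aspartate shuttle, which passes reducing power from cytosol to matrix, hardly differed. SLC25A12 (aralar) had 10.71 and 10.92, and SLC25A13 (citrin) had 12.72 on both arrays. SLC25A38, a glycine carrier needed for heme synthesis, had 11.72 and 11.89, and SLC25A44, a carrier of branched-chain amino acids, 9.75 and 9.54. SLC25A29, a carrier of basic amino acids, was 1.96-fold higher, from 4.75 to 5.72, both low values.

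Glutathione. Neither glutathione carrier passed 1.5-fold. SLC25A39, the form needed for mitochondrial glutathione import in most cells, had 10.52 and 10.91, and its relative SLC25A40 had 10.82 and 10.66. Their differences of 0.39 and -0.16 have opposite signs.

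Carboxylates and acylcarnitine. Of 5 carriers 2 were higher and 0 lower, with a median of 0.10 that turned to -0.02 when the differences were corrected for mean level by loess. Of all named genes 18.6% were higher and 16.6% lower, and with 5 members nothing particular to this group can be read. SLC25A20, which brings acylcarnitines into the matrix for fatty acid oxidation, had 8.02 in the control and 8.97 with ANO5 siRNA and was 1.93-fold higher. SLC25A21, a carrier of oxodicarboxylates from lysine and tryptophan breakdown, had 4.16 and 4.76, just past 1.5-fold at a low level. SLC25A1, which exports citrate for fatty acid synthesis, had 11.46 and 11.15. SLC25A10, the dicarboxylate carrier, had 10.54 and 10.08, and SLC25A11, the oxoglutarate/malate carrier of the malate-aspartate shuttle, 12.78 and 12.88. The last 3 lay within 1.5-fold.

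Iron. Both mitoferrins, which bring iron into the matrix for heme and iron-sulfur clusters, were lower. SLC25A37 (mitoferrin 1), the form best known from red cell precursors, had 7.61 in the control and 6.85 with ANO5 siRNA (1.69-fold lower). SLC25A28 (mitoferrin 2), the form of most other cells, had 7.58 and 6.88 (1.62-fold lower). This was the only group with over 1 member in which every member passed 1.5-fold in the same direction, and its median of -0.73 lay between -0.77 and -0.66 under the scalings and the pseudocount tried. With 2 members, and 16.6% of all named genes lower, nothing particular to iron carriers can be read from this count.

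Uncoupling-type carriers. SLC25A14, SLC25A27 and SLC25A30 are related to the uncoupling protein of brown fat. All 3 had negative differences, and 1 passed 1.5-fold. Of all 14526 named genes 6816 had negative differences, and 16.6% were lower by 1.5-fold. With 3 members, nothing particular to uncoupling-type carriers can be read from these counts. SLC25A27 (UCP4), a form of brain, was 1.69-fold lower at low values, 5.16 and 4.40. SLC25A30 had 7.34 and 6.91, and SLC25A14 (UCP5) had 7.89 and 7.55. The uncoupling proteins under their own symbols had differences of either sign or 0. UCP2 had 10.46 and 10.25, a difference of -0.21, UCP3 had 5.51 on both arrays, and UCP1, the brown fat protein, had 3.41 in the control and a difference of 0.59, at low values on both arrays.

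Carriers with no settled substrate. Of 7 such carriers 1 was higher and 2 were lower, with a median of 0. Of all named genes 18.6% were higher and 16.6% lower, and with 7 members nothing particular to this group can be read. SLC25A43 had 10.00 in the control and 9.13 with ANO5 siRNA (1.83-fold lower), and SLC25A35 had 7.88 and 7.13 (1.68-fold lower). SLC25A45 was 2.27-fold higher, from a low 5.18 to 6.36. SLC25A46, a protein of the outer membrane that acts in mitochondrial fission and fusion, had 12.78 and 13.35. Its difference of 0.57 falls just short of 1.5-fold, as does that of SLC25A26 (0.54), while SLC25A36 (-0.60) and SLC25A21 (0.60) are just past it. SLC25A34 had 9.03 and 8.75, SLC25A47, a carrier of liver, 6.91 and 7.02, and SLC25A48 had 4.40 on both arrays.

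MTCH1 and MTCH2, divergent family proteins that insert other proteins into the outer membrane, carry other symbols and are not among the 42. MTCH1 had 13.06 and 14.14, a difference of 1.08, and MTCH2 had 13.86 and 14.00. SLC25A2, SLC25A3, SLC25A6, SLC25A15 and SLC25A53 were not analysed here. The phosphate carrier, a group of its own, is thus not described.

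**Figure D2:**
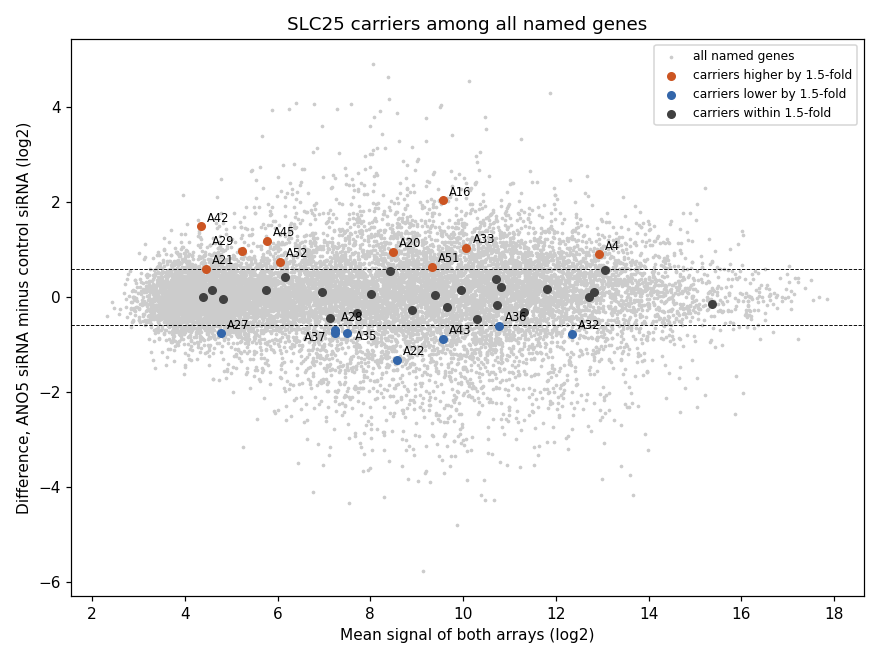
Difference between the arrays (vertical axis, ANO5 siRNA minus control siRNA, log2) against the mean signal of both arrays (horizontal axis, log2) for all 14526 named genes in grey and the 42 carriers in colour, 1 array a group and no error bars. Dashed lines mark 1.5-fold, carriers past them are named without the prefix SLC25, and the 10 higher and 8 lower carriers lie inside the cloud of all genes, from SLC25A22 at -1.32 to SLC25A16 at 2.04.

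The 42 carriers lie on 18 chromosomes, and 3 pairs are neighbours with no protein-coding gene between them in the RefSeq gene table. None of the pairs had both genes past 1.5-fold. On chromosome X, SLC25A43 differed by -0.87 and SLC25A5 next to it by -0.14. On chromosome 14, SLC25A29 differed by 0.97 and SLC25A47 by 0.11, and on chromosome 19, SLC25A41 by 0.15 and SLC25A23 by 0.07.

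Genes that make, regulate or work with the carriers were taken from lists by function. The counts of each list below stand beside 18.6% higher and 16.6% lower of all named genes. At or above the 33rd percentile of mean level these shares were 23.2% and 20.1%. Each list holds few genes, so nothing particular to a list can be read from its count. Of 10 genes of carrier import into the inner membrane 5 were lower and 1 was higher, with a median of -0.47. TIMM22, the channel that inserts carriers, had 11.77 in the control and 10.20 with ANO5 siRNA, a difference of -1.57. The small chaperones that guide carriers through the intermembrane space differed by -0.97 (TIMM10), -0.88 (TIMM13), -0.64 (TIMM8A) and -0.62 (TIMM9), while TIMM8B differed by 0.53 and TIMM10B by 0.03. AGK, a lipid kinase that is also a subunit of the TIM22 complex, was higher (10.43 and 11.20). TOMM70, the outer membrane receptor for carriers, had 12.08 and 12.56. The list thus went both ways, with 6 negative and 4 positive differences, and all 10 genes lay at or above the 33rd percentile of mean level, where 20.1% of named genes were lower.

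Of 9 regulators of mitochondrial biogenesis 3 were lower and 1 was higher, with a median of -0.53. TFAM, which packs and transcribes mitochondrial DNA, had 13.61 and 12.27, a difference of -1.34. The coactivators PPRC1 and PPARGC1B differed by -1.20 and -1.16, the latter at low values, and NRF1 by -0.53. ESRRA, a nuclear receptor that acts on genes of oxidative metabolism, was higher, from 7.87 to 9.11.

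Enzymes on the matrix side of the carriers were also mixed. Of 9 mitochondrial one-carbon enzymes, some of which use the folate that SLC25A32 brings, 4 were lower and 3 were higher. MTHFD1L differed by -1.30, SHMT2, which makes glycine from serine, by -1.02 (15.25 and 14.23) and GCSH by -0.88, whereas MTHFD2 differed by -0.06. DLD, shared by several dehydrogenases, differed by 1.10, MTHFD2L by 0.79 at low values and MTFMT by 0.68. Of the 6 at or above the 33rd percentile of mean level, 3 were lower and 2 were higher.

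Of 11 iron-sulfur and heme genes, some of which use the iron of the mitoferrins, 4 were lower and 3 were higher. GLRX5 and LYRM4, which act in iron-sulfur cluster assembly, differed by -1.20 and -1.01, and FECH, the last enzyme of heme synthesis, by -0.82. ALAS1, the first enzyme of heme synthesis, differed by 1.07, FDX1 by 0.67 and the desulfurase NFS1 by 0.60, while the scaffold ISCU differed by 0.12.

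Of 16 genes of the malate-aspartate shuttle and citrate cycle 4 were higher and 3 were lower. SUCLG2, a subunit of succinyl-CoA ligase, had 8.62 and 6.14 and differed by -2.48, the largest difference of all these lists. GLUD1, which turns glutamate into oxoglutarate in the matrix, had 13.15 and 11.69 (-1.46). The glutamate carrier SLC25A22 was also lower, whereas SLC25A18, SLC25A12 and SLC25A13 differed by 0.15, 0.21 and 0. A link between GLUD1 and these carriers was not tested. The cytosolic shuttle enzymes went apart, with MDH1 at -0.74 and GOT1 at 0.82. OGDH and IDH3G differed by 0.68 and 0.64, and GOT2 by -0.17.

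Of 7 genes of the urea cycle and of proline and ornithine metabolism 3 were higher and 1 was lower. ASS1, which joins citrulline and aspartate, had 10.41 and 12.20 (1.79), ARG2 differed by 1.32 at low values and ASL by 0.60, while PYCR1, an enzyme of proline synthesis, differed by -1.22 and OAT by 0.52. Of 9 mitochondrial nucleotide enzymes 2 were lower and 1 was higher, with NME6 at -1.44, AK4, an adenylate kinase of the matrix, at -1.18, TK2, the mitochondrial thymidine kinase, at 0.83 and AK3 at -0.09.

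Of 19 transporters and channels of mitochondria outside the family 6 were lower and 3 were higher, with a median of -0.09. Among the sideroflexins, SFXN1, a serine carrier of the inner membrane, had 13.46 and 12.33 (-1.13), SFXN2 differed by -1.36 and SFXN5 by -1.23, whereas SFXN4 differed by 0.50. The calcium uniporter MCU had 14.13 and 15.51 (1.38), and its subunit SMDT1 differed by 0.97. MPC2 of the pyruvate carrier differed by 0.70 and its partner MPC1 by -0.10.

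**Figure D3:**
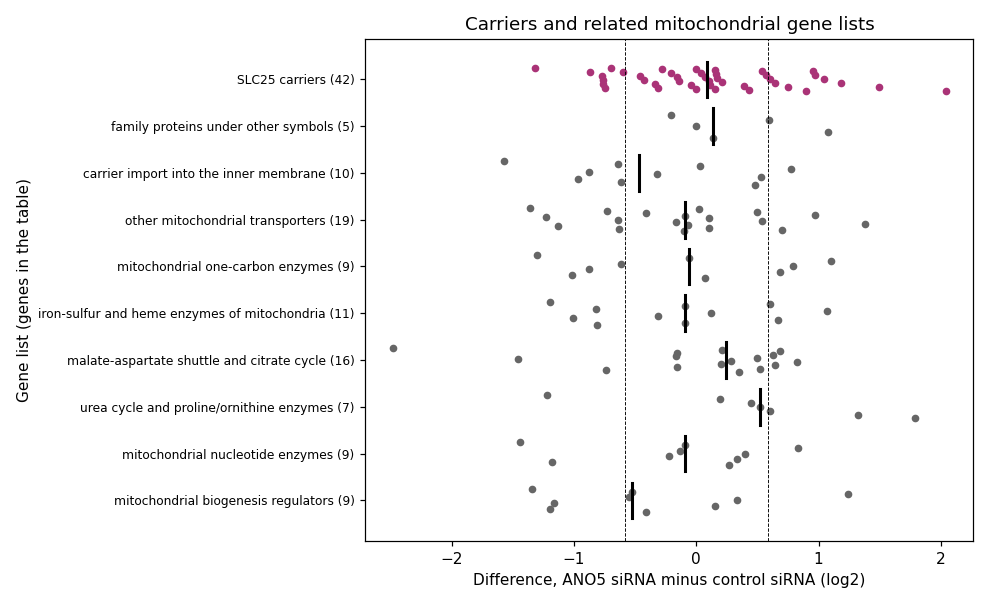
Difference between the arrays (horizontal axis, ANO5 siRNA minus control siRNA, log2, 1 array each) for the SLC25 carriers and 9 lists of related mitochondrial genes (vertical axis, with the number of genes in the table); points are genes, spread vertically only for legibility, black bars are medians and dashed lines mark 1.5-fold. The carriers centre at 0.085 and the import and biogenesis lists at -0.47 and -0.53, with members of every list but that of family proteins under other symbols past 1.5-fold on both sides.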

How the data were processed

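RNA of both cultures was measured on 1 array each (groups from the labels). The authors deposited 1 value per array for 17345 transcript clusters, read here as log2 signal because the values run from 2.13 to 18.15. Agilent Feature Extraction 12.0.3.1 is named in the submitters' processing notes. For background correction, normalization, log base and genome build, nothing is given in the sources used here. No column was left unused. Array medians were 7.69 (control) and 7.68, and 75th percentiles differed by 0.02, so values were used as deposited.

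Names came from the platform's annotation. Of the clusters 14544 had 1 symbol, 0 had several and 2801 had none. Where a gene had several clusters, the one of highest mean signal was kept, with no filter on low values. Differences are ANO5 siRNA minus control siRNA. With 1 array a group no test was run. No detection call was used. Every member was named with both values, and from each related list the members with the largest differences past 1.5-fold (up to 3 each way) and 1 further member, with a few others chosen after their values were seen. Members and lists were chosen with earlier results of these data known, and the promoter motifs after the values were seen. The counting was tested on simulated data with planted changes, with all other genes unchanged and no noise added. Such a test checks the code and not the precision of counts from 1 array a group. Alternatives were 4 scalings, the median over clusters, 2 filters, thresholds of 2-fold and 3-fold, a pseudocount of 16, and protein-coding symbols only. Python 3.11.15, numpy 2.4.6, pandas 2.3.3 and statsmodels 0.14.6 (loess, span 0.4) were used.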

Additional observations from a re-analysis of the deposited data

How the results depend on the processing

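No paired analysis was possible because each group holds 1 array. The counts of 10 higher and 8 lower carriers stayed at 9 to 10 and 7 to 8 under the 4 scalings and the pseudocount. Of the higher carriers 6 were left with the filter at the 33rd percentile of mean level, 5 with that at the 50th, 4 at 2-fold and 1 at 3-fold. Of the lower ones 4 were left with the filter at the 50th percentile, 1 at 2-fold and 0 at 3-fold. These settings keep fewer genes or ask for more. A shift of over 0.1 in a median was counted as a move. Loess on mean level moved the medians of pyrimidine nucleotide carriers to 0.102, of amino acid carriers to 0.0343, of glutathione carriers to -0.0109 and of carboxylate carriers to -0.0188. Either filter moved those of ADP/ATP carriers to 0.38, amino acid carriers to 0, carboxylate carriers to -0.105 and carriers with no settled substrate to -0.28, by leaving out members of low signal. The family median lay between 0.015 (loess) and 0.095 (median centring). Single carriers changed sides of 1.5-fold in 4 cases: SLC25A21 to 0.58 with 75th percentile centring and to 0.35 with the pseudocount, SLC25A27 to -0.48 with the pseudocount, and SLC25A51 to 0.55 after loess. All carriers have 1 cluster, so the median over clusters could not move them, and protein-coding symbols left the family as it was. Low signal, with no detection call, limits the folds of the 9 carriers below 6.05.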
